A study of Mus musculus with 32 samples.

Results

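The mRNA levels of 10 triglyceride synthesis enzymes were followed through the conversion of 3T3-L1 cells into fat cells with and without knockdown of Zbtb9. The members were chosen by gene name (Gpd1, Gpam, Gpat3, Gpat4, Agpat2, Lpin1, Lpin2, Lpin3, Dgat1 and Dgat2). All 10 were found among the 20560 genes of the deposited table, and all 10 passed the filter on low values in every fit. 3T3-L1 is a mouse fibroblast-like preadipocyte line that stores lipid after hormone treatment. Cells of wild-type genotype with a scramble hairpin (shCtrl) served as control, and Zbtb9, which encodes a zinc finger protein with a BTB domain, was knocked down with either of 2 short hairpin RNAs (shRNA 1 and shRNA 2). Every group was put through the same differentiation, begun at day 0 in confluent cells with dexamethasone, isobutylmethylxanthine and insulin, continued from day 3 with insulin alone and from day 7 without addition. RNA was sequenced at days 0, 3, 7 and 11, with 4 control libraries and 2 libraries of each hairpin at each day, 32 in all. The labels name the cells preadipocytes at day 0, premature adipocytes at days 3 and 7 and mature adipocytes at day 11. They call the replicates biological but do not say that these came from separate cultures, so p-values measure the spread between these libraries, which may be technical. The vector, any selection and any batch are not given in the sources used here.

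Triglyceride is built stepwise on a glycerol backbone. Gpd1 reduces dihydroxyacetone phosphate from glycolysis to glycerol-3-phosphate, a glycerol-3-phosphate acyltransferase (Gpam in mitochondria, Gpat3 and Gpat4 in the endoplasmic reticulum) adds the first fatty acid, and Agpat2 adds the next to give phosphatidic acid. A lipin (Lpin1, Lpin2 or Lpin3) removes the phosphate to give diacylglycerol, and Dgat1 or Dgat2 adds the last fatty acid. Loss of AGPAT2 in people causes a congenital absence of body fat, and mice without Lpin1 have little fat tissue.

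The promoters of 4 members are printed because they set enzymes that were higher in the knockdown beside one that was not called with the hairpins pooled. Called means an adjusted p under 0.05 from limma, adjusted over every gene tested. RefSeq promoter windows (build GRCm38.p6) were matched by symbol for 6 of the 10 members, with 10 windows in all, and the 250 bases before the annotated start are given 5′ to 3′. Gpat3, Agpat2 and Lpin1 were higher in the knockdown at days 3, 7 and 11, and Lpin2 at none of them with the hairpins pooled, though it was higher with shRNA 1 alone. Capitals mark matches to 7 searched motifs on either strand, which were the TATA box TATAAA, the nuclear factor Y box CCAAT, the GC box GGGCGG, the E-box CACGTG, the direct repeat of nuclear receptors (DR1), the C/EBP-like TTGCNNAA and the sterol element-like TCACNCCAC. Overlapping matches run together in the capitals.
Gpat3, chr5:100845979-100846228, plus strand: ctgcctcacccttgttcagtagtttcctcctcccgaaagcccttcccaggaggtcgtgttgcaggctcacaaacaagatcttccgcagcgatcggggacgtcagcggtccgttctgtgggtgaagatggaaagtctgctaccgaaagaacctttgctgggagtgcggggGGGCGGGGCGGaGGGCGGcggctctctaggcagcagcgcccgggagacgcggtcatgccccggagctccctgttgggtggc
Agpat2, chr2:26604418-26604667, minus strand: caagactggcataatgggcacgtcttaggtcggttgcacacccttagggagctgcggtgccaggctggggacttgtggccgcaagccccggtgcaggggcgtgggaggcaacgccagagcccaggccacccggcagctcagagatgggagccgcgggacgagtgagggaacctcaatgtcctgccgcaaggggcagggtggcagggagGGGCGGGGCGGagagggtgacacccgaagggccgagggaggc
Lpin1, chr12:16610967-16611216, minus strand: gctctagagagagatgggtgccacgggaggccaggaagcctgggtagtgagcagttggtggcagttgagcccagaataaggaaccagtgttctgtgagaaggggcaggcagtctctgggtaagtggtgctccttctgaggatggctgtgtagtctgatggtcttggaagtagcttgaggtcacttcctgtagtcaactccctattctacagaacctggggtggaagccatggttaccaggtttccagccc
Lpin2, chr17:71183282-71183531, plus strand: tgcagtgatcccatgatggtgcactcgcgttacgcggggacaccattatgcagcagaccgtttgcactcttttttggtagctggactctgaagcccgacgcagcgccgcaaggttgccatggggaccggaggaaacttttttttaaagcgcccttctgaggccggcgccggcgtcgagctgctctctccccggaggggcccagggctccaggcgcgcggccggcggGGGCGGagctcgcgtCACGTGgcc
With positions counted from 1 at the 5′ end, Gpat3 held GC boxes at 170, 175 and 182 and Agpat2 at 209 and 214. The printed Lpin2 window, the first of 3, held a GC box at 227 and an E-box at 242. Of its other windows, chr17:71183728-71183977 held a GC box at 172, and chr17:71204404-71204653 held CCAAT at 18, 86 and 194 and the C/EBP-like motif at 181. The Lpin1 window matched none of the 7 motifs. Among all 32851 windows of this length a GC box occurred in 32.7%, an E-box in 6.02%, the nuclear factor Y box in 33.8%, a TATA box in 12.4%, the C/EBP-like motif in 9.56%, the sterol element-like motif in 1.05% and DR1 in 0.338%. The windows differed in base composition, with 64.0% G or C and 19 CG dinucleotides in Gpat3, 69.2% and 16 in Agpat2, 54.8% and 1 in Lpin1, and 65.2% and 26 in Lpin2. A match describes letters only, and the absence of one says nothing of a factor beyond this window.

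Levels are given as normalized reads, which are whole reads rebuilt from the deposited values and divided by a size factor for each library. Libraries held 22280363 to 31073726 reads in genes. The arms overlapped in depth at days 0, 3 and 7, but at day 11 controls had 26486057 to 31073726 reads and knockdown libraries 22839508 to 25511855. Differences are on the log2 scale of the deposited values, which draw genes with few reads towards their mean, so the ratio of reads can be larger. Zbtb9 itself was sparse. Over days 0, 3, 7 and 11 control libraries had 13.5 to 14.9, 6.35 to 12.6, 12.7 to 22.3 and 12.1 to 20 normalized reads, and knockdown libraries 4.62 to 10.6, 0 to 8.99, 4.87 to 9.28 and 2.13 to 19.3. The arms did not overlap at days 0 and 7 and overlapped at days 3 and 11. At day 11 shRNA 1 had 8.17 and 19.3, a mean of 88.5% of control, and the library labelled shRNA 1 replicate 2 lay within the range of control. With shRNA 2 the mean was 20.5% of control, without overlap. It did not pass the filter at day 3 and was not tested there. Its log2 difference was called at day 7 (-0.35, adjusted p 0.0288) and not at days 0 and 11 (-0.21 and -0.28), and 84.4% of its annotated exon bases are also exon of another gene on the same strand (AC144621.2 or Ggnbp1), so its size is uncertain.

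The cells were checked against markers. The summed level of 10 adipocyte markers was 44872 to 49161 normalized reads in control and 122012 to 190253 in knockdown libraries at day 7, and 53552 to 64089 and 109151 to 135227 at day 11. Of the 9 tested, 1, 9, 9 and 8 were higher in the knockdown at days 0, 3, 7 and 11. In whole cultures, more adipocytes and more RNA of a gene per adipocyte cannot be told apart. Of 8 preadipocyte and fibroblast markers, 7 were tested, and 1, 2, 6 and 3 were lower and 0, 1, 0 and 0 higher. Of all genes tested, 0.817%, 14.6%, 24.9% and 16.8% were higher and 2.44%, 12.1%, 22.6% and 16.2% lower in order of day. Of 6 macrophage markers 5 were measured, and their sum was 209 to 308 in control and 313 to 648 in knockdown libraries at day 11, with means of 191 and 395 for Cd68 and of 40.8 and 31.4 for Lyz2, while Ptprc, which marks all leukocytes, stayed at 3 reads or fewer in every library. Sums of endothelial, skeletal muscle and epithelial markers stayed below 50 normalized reads in every library. At day 7 Cd68 was higher (log2 difference 0.87) and Lyz2 lower (-0.75) in the knockdown. The part of these markers in the results was not tested.

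Knockdown cultures carried more mRNA for most of the pathway at days 3, 7 and 11. At day 0 none of the 10 members was called, with 3 at an unadjusted p under 0.05 (Gpam, Gpat4 and Lpin2) and none by limma's voom on rebuilt reads, against 3.25% of 13216 genes called (0.817% higher and 2.44% lower). At day 3, 6 members were higher and 1 lower, against 26.7% of all genes (14.6% higher and 12.1% lower). At day 7, 8 were higher and none lower, against 47.6% (24.9% higher and 22.6% lower), and at day 11, 7 were higher and none lower, against 33% (16.8% higher and 16.2% lower). The median log2 difference of the 10 members was 0.07, 0.49, 1.3 and 0.72 in order of day, where that of all genes tested was -0.01, 0, 0.01 and -0.01. The libraries of the arms did not overlap for 3, 7, 7 and 7 members, where 13.9%, 28.3%, 44.2% and 34.3% of all genes tested did not. The 6 members higher at each of days 3, 7 and 11 were Gpd1, Gpat3, Agpat2, Lpin1, Dgat1 and Dgat2. With the replicate number as a block in the fit, Gpd1 and Agpat2 were not called at day 3 (adjusted p 0.11 and 0.0507). Nor was Gpd1 at day 11 (adjusted p 0.0765). Rescaling the libraries to equal totals moved the share of all calls that were higher at day 0 from 25.1% to 43.3%, and changed the direction of no member's call.

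**Figure D1:**
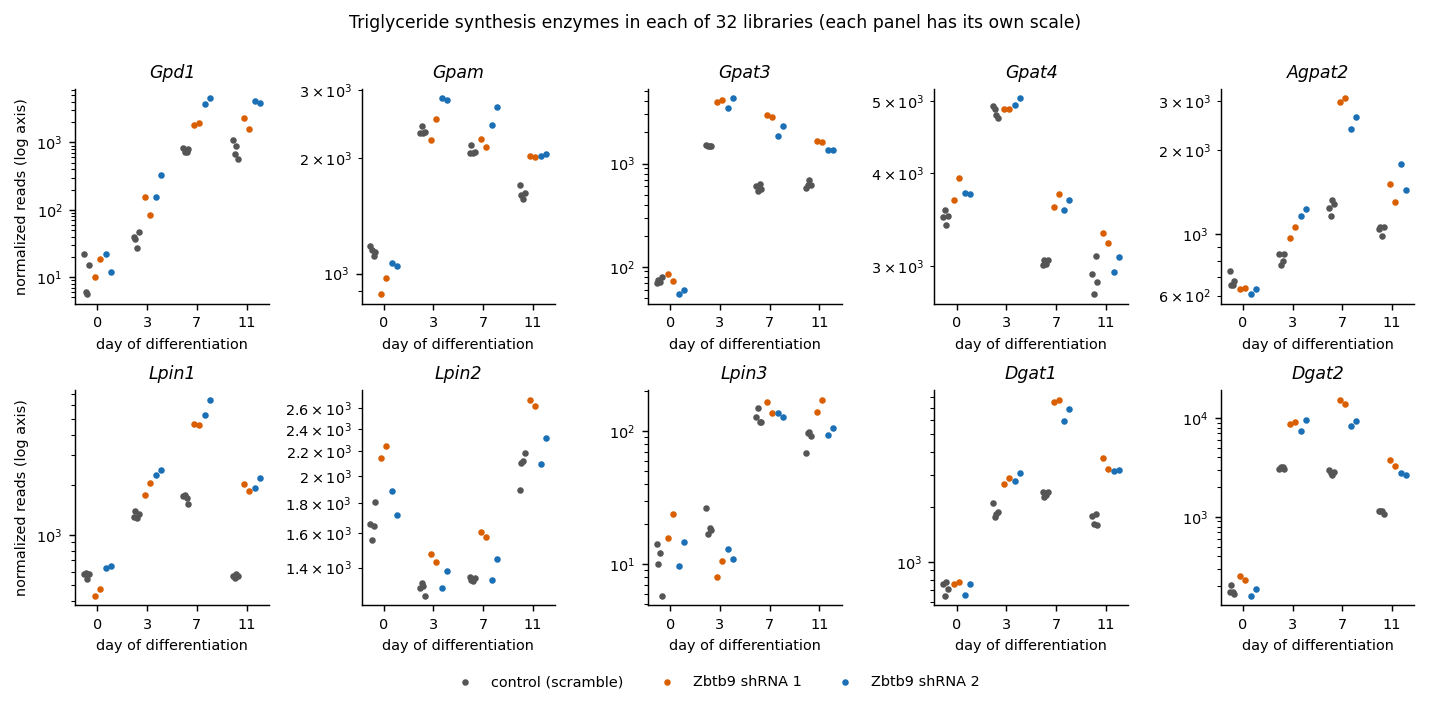
Normalized reads (log axis, a scale of its own in each panel) of the 10 enzymes in each of the 32 libraries by day, in grey for control, orange for shRNA 1 and blue for shRNA 2. At day 7 the control libraries of Dgat2 lie between 2682 and 2998 and the knockdown libraries between 8222 and 15197, while those of Lpin2 and Lpin3 overlap.

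**Figure D2:**
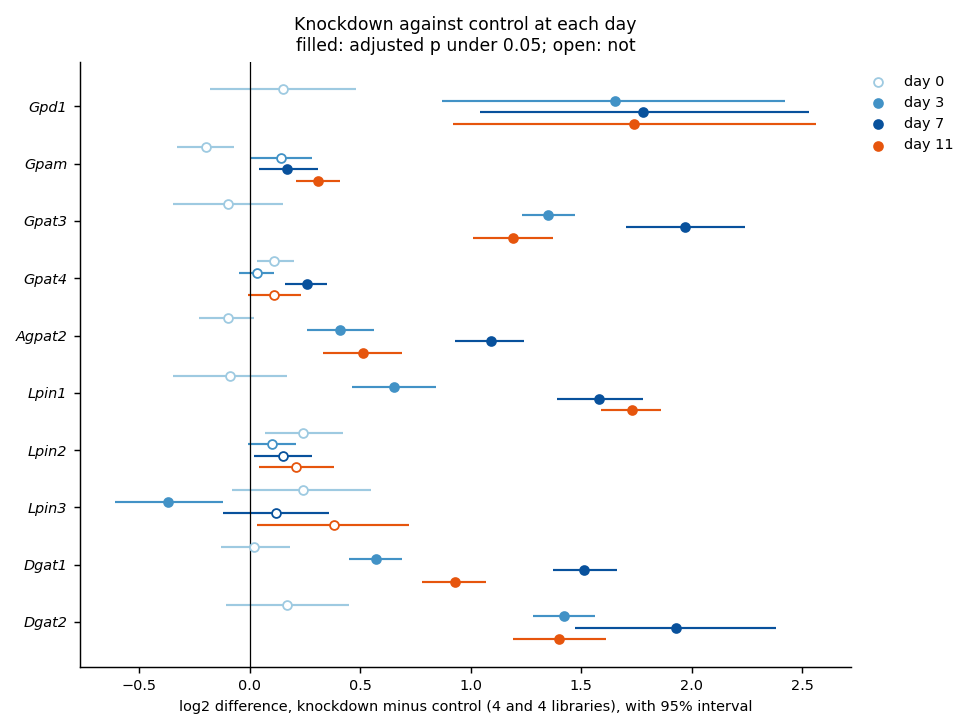
Log2 difference between 4 knockdown and 4 control libraries for each enzyme, with its 95% interval, 1 colour per day. Filled points passed an adjusted p of 0.05, and the points of Gpd1, Gpat3, Agpat2, Lpin1, Dgat1 and Dgat2 are filled and to the right of 0 at days 3, 7 and 11.

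The differentiation of control cells itself changed all members. Against day 0, all 10 were called at day 3 (9 higher, 1 lower) and at day 7 (8 higher, 2 lower), and 9 at day 11 (8 higher, 1 lower). With voom Gpd1 was not called at day 3 (1.754, adjusted p 0.0946). Such calls were common, with 76.6% of 13421 genes at day 3 (38.3% higher and 38.2% lower), 69.1% at day 7 (33.3% and 35.8%) and 64.6% at day 11 (33% and 31.6%). The members' median was 0.93, 1.54 and 0.87 on the log2 scale, where that of all genes was 0, -0.01 and 0.01. These comparisons share the day 0 libraries. When libraries were rescaled to equal totals, the day 3 median over every gene became -0.12 and 38.6% of its calls were higher in place of 50.1%. No member's direction turned.

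Gpd1, which supplies the backbone, had the largest rise of the members in control from day 0 to day 7. It lies on chromosome 15 from 99717515 to 99725005, plus strand (GRCm38), and 13% of its exon bases are exon of Gm16537 on the other strand. Control libraries had 5.63, 6.07, 14.9 and 21.9 normalized reads at day 0 and 27.2, 37, 40 and 46.8 at day 3. They then had 716, 725, 806 and 841 at day 7, which was 63.7-fold the day 0 mean, and 573, 682, 875 and 1079 at day 11. The difference between days 11 and 7 was not called (log2 difference 0.02, 95% interval -0.31 to 0.35). In the knockdown Gpd1 had 82.5 and 154 with shRNA 1 and 153 and 333 with shRNA 2 at day 3, all above the controls. At day 7 it had 1806 and 1980 with shRNA 1 and 3790 and 4525 with shRNA 2, and at day 11 1574 and 2279 with shRNA 1 and 3861 and 4090 with shRNA 2. Every knockdown library was above every control at these days, and shRNA 2 stood above shRNA 1 at days 7 and 11. The knockdown mean was 4.79-fold, 3.92-fold and 3.68-fold the control mean at days 3, 7 and 11, and the log2 differences were 1.65 (adjusted p 0.00868), 1.78 (adjusted p 0.00326) and 1.74 (adjusted p 0.00889). With the replicate number as a block in the fit, the calls of days 3 and 11 were lost (adjusted p 0.11 and 0.0765).

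The acyltransferases of the first step differed in response, with Gpat3 showing the largest differences of the 3 at days 3, 7 and 11. Gpat3 (chromosome 5, 100845713 to 100899102, plus strand) had 69.0, 70.4, 73.9 and 79.6 normalized reads in control at day 0 and 1466, 1471, 1491 and 1522 at day 3, a 20.3-fold rise. It then had 544, 573, 606 and 634 at day 7 and 582, 617, 621 and 698 at day 11. Its highest day in control was thus day 3. In the knockdown it had 3490, 3924, 4104 and 4284 at day 3, 1863, 2319, 2841 and 2969 at day 7 and 1343, 1362, 1615 and 1665 at day 11, each above every control. These means were 2.66-fold, 4.24-fold and 2.38-fold the control means, with log2 differences of 1.35 (adjusted p 5.92e-09), 1.97 (adjusted p 2.72e-07) and 1.19 (adjusted p 1.72e-06). Of its exon bases 7.40% are exon of another gene on the same strand and 30% on the other strand (4930458D05Rik and Gm42987). The strand setting of the counting is not given in the sources used here, so some reads may belong to these.

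Gpam, the mitochondrial enzyme (chromosome 19, 55067268 to 55127238, minus strand), moved less. In order of day, control libraries had 1114 to 1181, 2319 to 2418, 2060 to 2164 and 1560 to 1698 normalized reads. Knockdown libraries had 886 to 1063, 2229 to 2855, 2130 to 2708 and 2005 to 2052. The arms did not overlap at day 0, where the knockdown was lower but not called (log2 difference -0.20, adjusted p 0.101), and at day 11, where it was higher (0.31, adjusted p 0.000459). The day 0 difference was called with the hairpins as separate groups (adjusted p 0.00103), as was that of day 3 (0.14, adjusted p 0.136 as pooled and 0.00598 as separate groups). The day 3 difference was also called without shRNA 1 replicate 1 (0.209, adjusted p 0.00956). By hairpin, shRNA 1 gave 0.01 and 0.06 at days 3 and 7, not called, and shRNA 2 gave 0.26 (adjusted p 8.06e-05) and 0.28 (adjusted p 0.000126). At day 7 the pooled difference was 0.17 (adjusted p 0.0377) and did not survive several other settings. It was 0.134 (adjusted p 0.125) after rescaling to equal totals and 0.174 (adjusted p 0.0716) with no filter. Without shRNA 2 replicate 1 or 2 it was 0.161 (adjusted p 0.0688) or 0.112 (adjusted p 0.123), and without any 1 of the 4 controls 0.167 to 0.19 (adjusted p 0.0509 to 0.0862).

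Gpat4 (chromosome 8, 23171265 to 23208346, minus strand), the other enzyme of the endoplasmic reticulum, differed less between the arms than Gpat3 at days 3, 7 and 11. At day 7 it differed more than Gpam. Control means for days 0, 3, 7 and 11 were 3494 ± 64.8, 4836 ± 85.3, 3040 ± 25 and 2910 ± 142 (SD, n = 4). The knockdown had means of 3788 ± 113, 4934 ± 79.9, 3654 ± 79.9 and 3149 ± 165 (SD, n = 4). The arms did not overlap at days 0 and 7. Day 7 was called, with a log2 difference of 0.26 (adjusted p 0.000233), while days 0, 3 and 11 gave 0.11 (95% interval 0.03 to 0.20), 0.03 (95% interval -0.05 to 0.11) and 0.11 (95% interval -0.01 to 0.23). Day 0 was called with the hairpins as separate groups (adjusted p 0.00857) and day 11 in a single fit to the 32 libraries (adjusted p 0.0222). With shRNA 1 alone Gpat4 was called at days 0, 7 and 11 (0.12, 0.26 and 0.17) and with shRNA 2 at day 7 (0.25). The shRNA 1 call of day 11 was lost after rescaling to equal totals (0.139, adjusted p 0.0595) and without shRNA 1 replicate 1 (0.145, adjusted p 0.108) or control replicate 2 (0.142, adjusted p 0.0593).

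Agpat2, the lipodystrophy gene that makes phosphatidic acid, rose late (chromosome 2, 26593057 to 26604417, minus strand, with 3.00% of exon bases exon of Egfl7 on the other strand). Control libraries had 652, 652, 678 and 737 normalized reads at day 0, 770, 799, 846 and 849 at day 3, 1164, 1235, 1277 and 1328 at day 7 and 982, 1039, 1057 and 1058 at day 11. Knockdown libraries had 608, 634, 634 and 640 at day 0 and 969, 1056, 1159 and 1229 at day 3. They had 2375, 2638, 2988 and 3071 at day 7 and 1304, 1437, 1512 and 1783 at day 11. All knockdown libraries were below all controls at day 0 and above them at the later days, with log2 differences of -0.10 (adjusted p 0.339), 0.41 (adjusted p 0.000723), 1.09 (adjusted p 1.49e-08) and 0.51 (adjusted p 0.000635). The day 7 mean in the knockdown was 2.21-fold that of control, the highest ratio of its 4 days.

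Among the lipins, Lpin1 (chromosome 12, 16535669 to 16610966, minus strand) was the member higher in the knockdown at days 3, 7 and 11. Control libraries had 540, 582, 583 and 589 normalized reads at day 0, 1264, 1284, 1334 and 1389 at day 3, 1537, 1653, 1702 and 1724 at day 7 and 548, 561, 567 and 584 at day 11. In control the log2 difference between days 11 and 0 was -0.02 (95% interval -0.12 to 0.08) and was not called. Knockdown libraries had 1724, 2048, 2290 and 2448 at day 3, 4592, 4630, 5247 and 6453 at day 7 and 1841, 1913, 2007 and 2200 at day 11. They exceeded every control on each of these days, by 1.61-fold, 3.16-fold and 3.52-fold of the mean. The log2 differences were 0.65 (adjusted p 0.000239), 1.58 (adjusted p 1.99e-08) and 1.73 (adjusted p 2.56e-08). At day 0 the hairpins lay on either side of control, with 430 and 471 for shRNA 1 and 632 and 646 for shRNA 2.

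Lpin2 (chromosome 17, 71182560 to 71249817, plus strand) ran the other way in control. Its means for days 0, 3, 7 and 11 were 1667 ± 103, 1293 ± 26.8, 1338 ± 8.07 and 2076 ± 126 (SD, n = 4). It fell by day 3 (log2 difference -0.35, adjusted p 2.39e-08) and exceeded its starting level at day 11 (0.30, adjusted p 6.12e-07). The knockdown had means of 1998 ± 242, 1395 ± 78.4, 1493 ± 126 and 2432 ± 274 (SD, n = 4). The arms overlapped at every day. The log2 differences of 0.24, 0.10, 0.15 and 0.21 were not called (adjusted p 0.125, 0.155, 0.0579 and 0.0527). Those of days 0, 7 and 11 were called when the hairpins formed separate groups (adjusted p 6.73e-05, 0.01 and 0.00234), and a single fit to the 32 libraries called those of days 0 and 11 (adjusted p 0.044 and 0.0168). With shRNA 1 alone Lpin2 was higher at days 0, 3, 7 and 11 (0.38, 0.16, 0.24 and 0.34, adjusted p 9.26e-07, 0.0213, 0.001 and 0.00026), without overlap with control. At day 3 that call did not hold without shRNA 1 replicate 1 (0.14, adjusted p 0.17), shRNA 1 replicate 2 (0.182, adjusted p 0.0655) or control replicate 4 (0.148, adjusted p 0.0511). With shRNA 2 it overlapped control and was not called (0.11, 0.05, 0.05 and 0.09). At day 0 it was called in some other settings, such as without control replicate 4 (0.144, adjusted p 0.0327).

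Lpin3 (chromosome 2, 160880670 to 160906002, plus strand) had the smallest share of the lipin level per kilobase at every day. Control libraries had 5.80, 10.1, 12.2 and 14.3 normalized reads at day 0, 16.9, 18.1, 18.8 and 26.3 at day 3, 117, 118, 127 and 148 at day 7 and 68.3, 91.9, 96.2 and 97.9 at day 11. Knockdown libraries had 7.95, 10.6, 11 and 13 at day 3, all below the controls. With the hairpins pooled it was the only member called lower in the knockdown at any day (log2 difference -0.37, adjusted p 0.0273). That call was lost on rebuilt reads (-0.853, adjusted p 0.0523) and with voom (-0.873, adjusted p 0.0554), where the difference was larger in size, and without control replicate 1 or either shRNA 1 library (adjusted p 0.0531 to 0.0831). At day 7 the knockdown had 127 to 165 and at day 11 93.6 to 171, both overlapping control (log2 differences 0.12 and 0.38, adjusted p 0.419 and 0.0877). With shRNA 1 alone it was higher at day 11, with 139 and 171 and no overlap (0.63, adjusted p 0.00192). The pooled day 11 difference was called in a single fit to the 32 libraries (adjusted p 0.024), with the hairpins as separate groups (adjusted p 0.0145) and without shRNA 2 replicate 1 (0.482, adjusted p 0.0291).

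Both enzymes of the last step were higher in the knockdown from day 3 on. Dgat2 (chromosome 7, 99153658 to 99182719, minus strand) had 165, 174, 174 and 206 normalized reads in control at day 0 and 3019, 3082, 3188 and 3216 at day 3, a 17.4-fold rise. It then had 2682, 2800, 2863 and 2998 at day 7 and 1075, 1140, 1154 and 1156 at day 11. Knockdown libraries had 7400, 8752, 9034 and 9584 at day 3, 8222, 9358, 13874 and 15197 at day 7 and 2659, 2768, 3302 and 3786 at day 11, above every control. The means were 2.78-fold, 4.11-fold and 2.77-fold those of control, with log2 differences of 1.42 (adjusted p 1.8e-08), 1.93 (adjusted p 0.00012) and 1.40 (adjusted p 2.2e-06). Its highest day was day 3 in control and day 7 in the knockdown.

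Dgat1 (chromosome 15, 76502015 to 76511953, minus strand) rose more slowly. Control libraries had 653, 714, 759 and 779 normalized reads at day 0, 1773, 1834, 1866 and 2103 at day 3, 2281, 2339, 2413 and 2413 at day 7 and 1583, 1607, 1794 and 1824 at day 11. Knockdown libraries had 2667, 2792, 2872 and 3079 at day 3, 5950, 6903, 7557 and 7704 at day 7 and 3151, 3173, 3218 and 3725 at day 11. Again no knockdown library was within the range of control at these days. The ratios were 1.51, 2.98 and 1.95, and the log2 differences 0.57 (adjusted p 1.16e-05), 1.51 (adjusted p 3.03e-10) and 0.93 (adjusted p 2.63e-06). At day 0 neither enzyme was called, with log2 differences of 0.02 for Dgat1 (95% interval -0.13 to 0.18) and 0.17 for Dgat2 (95% interval -0.11 to 0.45).

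Levels were compared between enzymes of 1 step only per kilobase of annotated exon (GENCODE M21). In the control, Gpat4 made up 73.1% ± 0.310 of the summed acyltransferase level at day 0 and Gpat3 2.92% ± 0.179, and at day 3 Gpat4 made up 48.2% ± 0.228 and Gpat3 28.3% ± 0.231 (SD, n = 4). In the knockdown Gpat3 had the largest mean share at days 3 and 7, with 49.9% ± 2.60 and 43.8% ± 5.75 (SD, n = 4). At day 7 its range of 37.2% to 49.2% met that of Gpat4, 31.3% to 37.4%, and in shRNA 2 replicate 1 the shares were 37.2% and 37.4%. Gpat4 was first again at day 11, with 39.2% ± 0.583 against 35.5% ± 1.99 for Gpat3. The share of Gpat3 in the knockdown did not overlap that in control at days 3, 7 and 11. The summed level of the step was 1.5-fold, 1.73-fold and 1.40-fold that of control on these days.

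Lpin2 was the leading lipin in control at day 0 (68.6% ± 1.69) and at day 11 (67.3% ± 0.705), and Lpin1 at days 3 and 7 (55.1% ± 1.23 and 54.3% ± 0.972; SD, n = 4). In the knockdown Lpin1 made up 76.8% ± 3.91 at day 7 and 47.0% ± 4.28 at day 11, where control had 54.3% and 23.2% (SD, n = 4). At day 11 Lpin1 and Lpin2 in the knockdown overlapped, with 42.2% to 51.1% and 42.6% to 47.5%, and the leading lipin differed by hairpin. With shRNA 1 Lpin2 led in both libraries, with 47.2% and 47.5% against 44.7% and 42.2%. With shRNA 2 Lpin1 led in both, with 50.1% and 51.1% against 43.4% and 42.6%. Dgat1 was the main DGAT in control at days 0 and 11 (80.2% ± 2.74 and 60.2% ± 1.24) and Dgat2 at days 3 and 7 (62.1% ± 2.18 and 54.3% ± 0.901; SD, n = 4). The Dgat2 share was 75.0% ± 1.79, 61.5% ± 4.61 and 48.1% ± 2.56 in the knockdown at days 3, 7 and 11, without overlap with control (SD, n = 4). At day 7 it was 66.6% and 64.1% with shRNA 1 and 57.8% and 57.3% with shRNA 2. At day 11 it was 50.2% and 50.4% with shRNA 1 and 46.5% and 45.4% with shRNA 2. The summed DGAT level at day 7 was 3.59-fold that of control, and the summed lipin level 2.23-fold. These shares rest on lengths of all annotated exons, which a single transcript may not use.

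**Figure D3:**
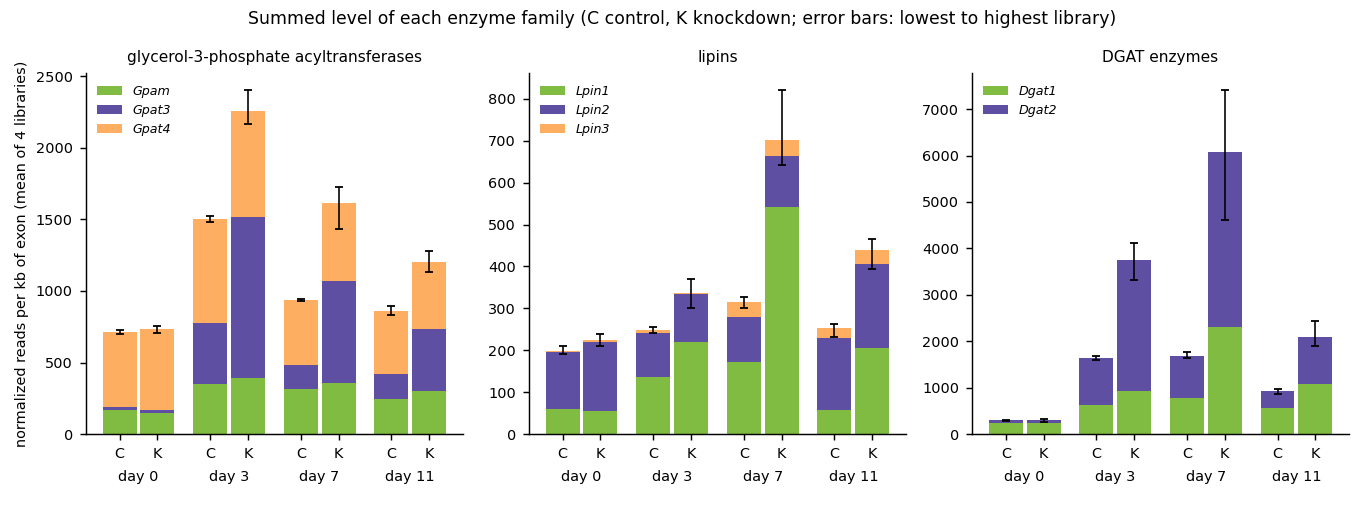
Summed level of the acyltransferases, the lipins and the DGAT enzymes in normalized reads per kilobase of exon, as stacked means of 4 libraries by day for control (C) and knockdown (K), with error bars from the lowest to the highest library. The DGAT sum of the knockdown at day 7 ranges from 4614 to 7402 and that of control from 1635 to 1762.

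The effect of the knockdown was then compared between days. Against its effect at day 0, 8 members differed at day 3 (6.57% of 13571 genes did), 8 at day 7 (29.9%) and 7 at day 11 (23.2%). For Gpat3 the effect was larger than at day 0 by 1.44, 2.06 and 1.28 on the log2 scale, and for Lpin1 by 0.74, 1.67 and 1.82. Gpat4 differed only at day 7 (0.14, adjusted p 0.0434) and lost this call after rescaling to equal totals (0.077, adjusted p 0.313). For Lpin3 the effect went from 0.24 at day 0, not called, to -0.37 at day 3. This difference of -0.61 (adjusted p 0.048) was lost with voom (adjusted p 0.121) and on leaving out control replicate 4 of day 0 (adjusted p 0.123), among other libraries. For Gpd1, with few reads at day 0, the differences of 1.5, 1.64 and 1.59 were called on the deposited values (adjusted p 0.0411, 0.00628 and 0.01) but not on rebuilt reads (adjusted p 0.107, 0.0785 and 0.108). The first was also lost without control replicate 1 of day 0 (adjusted p 0.0857), among other libraries. For Lpin2 the differences of -0.14, -0.10 and -0.03 were not called.

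Between days 7 and 11 the lead of the knockdown shrank for 3 members, where 12.7% of genes differed. The effect fell by 0.78 for Gpat3 (adjusted p 0.00042), by 0.58 for Agpat2 (adjusted p 0.000389) and by 0.58 for Dgat1 (adjusted p 0.000171). The effect on Lpin1 differed by 0.14 (95% interval -0.16 to 0.44). For Dgat2 it was -0.53 and missed the threshold (adjusted p 0.0801), and it passed without either shRNA 2 library of day 7 (adjusted p 0.012 and 0.0441). Without shRNA 1 replicate 1 of day 11, 5 members were called. Within control, 6 members fell and 1 rose from day 7 to day 11 (55% of genes were called), and within the knockdown 7 fell and 1 rose (60.9%). Lpin1 fell to 34.2% of its day 7 mean in control and to 38% in the knockdown, and Dgat2 to 39.9% and 26.8%. Lpin2 was the member that rose in both, to 155% and 163%. Gpat3 fell to 59.9% in the knockdown, and in control its log2 difference was 0.09 (95% interval -0.04 to 0.22).

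With each hairpin the 6 members named above were higher than control at days 3, 7 and 11. For Gpd1 with shRNA 1 the day 3 call was lost with voom (adjusted p 0.0887) and without shRNA 1 replicate 1 (0.822, adjusted p 0.0546) or control replicate 2 (1.204, adjusted p 0.0561). Its day 11 call was lost without shRNA 1 replicate 1 (0.967, adjusted p 0.0999). With the replicate number as a block, Gpd1 at day 3 was called with neither shRNA 1 (adjusted p 0.223) nor shRNA 2 (adjusted p 0.0956). Both hairpins are set against the same 4 controls, so their differences from control are not independent. With shRNA 1, 5, 8, 8 and 10 members were called at days 0, 3, 7 and 11, where 34.7%, 39.4%, 52% and 43.6% of all genes were. At day 11 Zbtb9 itself was at 88.5% of control with shRNA 1. With shRNA 2 the counts were 0, 7, 8 and 7, where 17.6%, 31.4%, 46% and 36.9% were. At day 0 with shRNA 2, 4 members had an unadjusted p under 0.05 and voom called none. Tested against each other, the hairpins differed for 4, 3, 7 and 4 members, where 35%, 19.6%, 16.4% and 22% of all genes differed.

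At day 7 the difference between hairpins ran both ways within the pathway. Gpd1 was higher with shRNA 2 by 1.09 (adjusted p 6.51e-09), Lpin1 by 0.32 (adjusted p 0.00338) and Gpam by 0.22 (adjusted p 0.0173). Dgat2 was lower with shRNA 2 (-0.70, adjusted p 3.66e-08), and so were Gpat3 (-0.46, adjusted p 0.000488), Agpat2 (-0.26, adjusted p 0.00974) and Dgat1 (-0.24, adjusted p 0.00837). Gpat4 (-0.02, 95% interval -0.13 to 0.10), Lpin2 (-0.19) and Lpin3 (-0.14) were not called. With no variance trend and no robust weighting 3 members were called, and without shRNA 1 replicate 2 there were 4. At day 11 Gpat3 (-0.27), Lpin2 (-0.26), Lpin3 (-0.50) and Dgat2 (-0.37) were lower with shRNA 2, and Gpd1 gave 1.03 (95% interval 0.22 to 1.83, adjusted p 0.0804, or 0.0478 by voom). At day 11 Gpd1 was also called in other settings, such as no filter (adjusted p 0.0142) and the replicate number as a block (adjusted p 4.92e-06). The count of 4 there became 1 without shRNA 1 replicate 2 or shRNA 2 replicate 1, and 2 without shRNA 1 replicate 1. At day 3 Gpam (0.25), Agpat2 (0.23) and Lpin1 (0.32) were higher with shRNA 2, whereas Dgat2 (-0.08, 95% interval -0.29 to 0.14) and Gpat3 (-0.05, 95% interval -0.18 to 0.08) were not called. Without shRNA 2 replicate 2, Dgat2 was called (-0.256, adjusted p 0.00124). Gpd1 had the largest difference at day 3, 0.88 (adjusted p 0.163), and was called without shRNA 1 replicate 1 (1.266, adjusted p 0.0206) or shRNA 2 replicate 1 (1.395, adjusted p 9.89e-05). Without shRNA 1 replicate 1, Gpd1 was the 1 member called and Gpam, Agpat2 and Lpin1 were not, and 5 members in place of 8 were called with shRNA 1 against control. Agpat2 was also not called without shRNA 2 replicate 2 (0.187, adjusted p 0.205).

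At day 0, before induction, the hairpins differed for 4 of 10 members, a share near the 35% of all genes, and for 2 without replicate 1 of either hairpin. At day 0 Lpin1 was higher with shRNA 2 than with shRNA 1 (0.48, adjusted p 2.2e-05) and so was Gpam (0.18, adjusted p 0.0285), while Dgat2 (-0.42, adjusted p 0.00668) and Lpin2 (-0.28, adjusted p 0.000602) were lower. Against control, shRNA 1 was lower for Gpam (-0.29) and Lpin1 (-0.33) and higher for Gpat4 (0.12), Lpin2 (0.38) and Dgat2 (0.38), where 34.7% of all genes were called. The Gpat4 call was lost without shRNA 1 replicate 2 (0.072, adjusted p 0.321) and that of Dgat2 without shRNA 1 replicate 1 (0.331, adjusted p 0.0844). With shRNA 2 these 5 had -0.11, 0.15, 0.10, 0.11 and -0.04, none called.

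**Figure D4:**
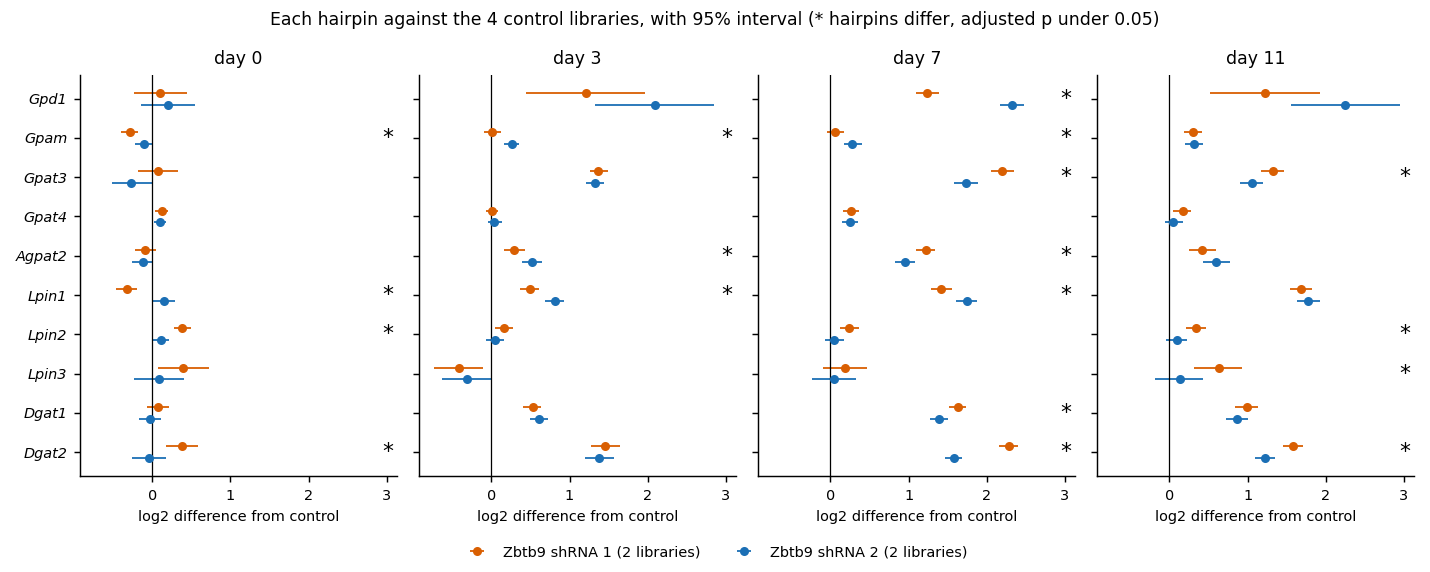
Log2 difference of each hairpin (2 libraries) from the 4 control libraries for each enzyme, 1 panel per day, with 95% intervals. A star marks an enzyme for which the hairpins differed at an adjusted p under 0.05, with 7 stars at day 7, where Gpd1 lies further right for shRNA 2 (2.33 against 1.24) and Dgat2 for shRNA 1 (2.28 against 1.58).

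Of 18 further genes that feed or serve triglyceride synthesis, 17 were in the table and 14, 14, 15 and 15 were tested at days 0, 3, 7 and 11, and 0, 2, 7 and 5 were higher and 1, 1, 3 and 2 lower in the knockdown. That made 3 of 14 called at day 3, 10 of 15 at day 7 and 7 of 15 at day 11, where 26.7%, 47.6% and 33% of all genes were. Their median log2 difference was 0, 0.03, 0.22 and -0.02. None was called in 1 direction at all of days 3, 7 and 11. The largest difference of each day was a fall of Plpp1, a membrane phosphatidate phosphatase, at day 0 (-0.36, adjusted p 0.0376), and rises of glycerol kinase Gk at day 3 (0.62, adjusted p 0.000153), the glycerol channel Aqp7 at day 7 (1.32, adjusted p 6.93e-05) and Pck1, which starts glyceroneogenesis, at day 11 (1.07, adjusted p 0.0103). Aqp7 had 32.4 normalized reads in control and 113 in the knockdown at day 7. The monoacylglycerol acyltransferases Mogat1 and Mogat2 had at most 6 reads in any library and were not tested.

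The 12 genes of phospholipid synthesis, which draws on the same phosphatidic acid and diacylglycerol, were called in both directions at days 3 and 7. Of 11 tested, 0, 3, 6 and 5 were higher and 0, 2, 3 and 0 lower in the knockdown in order of day, with medians of -0.03, 0.07, 0.19 and 0.16. Of all genes, 0.817%, 14.6%, 24.9% and 16.8% were higher and 2.44%, 12.1%, 22.6% and 16.2% lower. At day 0, 0 had an unadjusted p under 0.05 by limma. The 3 higher at each of days 3, 7 and 11 were cardiolipin synthase Crls1 (0.28, 0.51 and 0.22), the choline and ethanolamine phosphotransferase Cept1 (0.29, 0.32 and 0.22) and the ethanolamine phosphotransferase Selenoi (0.23, 0.61 and 0.47). Pemt, which methylates phosphatidylethanolamine, had the largest difference at days 3, 7 and 11 (0.31, 1.21 and 0.57, adjusted p 0.0689, 1.02e-06 and 0.00258), and Pcyt1a at day 0 (-0.22, adjusted p 0.539).

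Of 8 transcription regulators of these enzymes, 7, 6, 7 and 7 were tested. In order of day 0, 3, 3 and 4 were higher and 1, 0, 1 and 0 lower, with medians of -0.04, 0.28, 0.18 and 0.47, against the same shares of all genes as for the phospholipid genes (at day 7, 24.9% higher and 22.6% lower). Pparg, the nuclear receptor that drives fat cell formation, was higher by 0.37, 1.17 and 1.15 at days 3, 7 and 11, and Cebpa, its partner, by 0.88, 1.99 and 1.63, the largest of the list at each of these days. Srebf1, the insulin-responsive activator of lipid synthesis genes, was called only at day 11 (0.47, adjusted p 0.000122), with 4120 normalized reads in knockdown and 2940 in control. At day 7 it was 0.12 (adjusted p 0.0703). Mlxipl, the carbohydrate-responsive activator, had at most 5 reads in any library and was not tested. The liver X receptor Nr1h3 had the largest difference at day 0 (-0.39, adjusted p 0.157).

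Over the 32 libraries, the members did not follow a single course. As a description, the correlation of each member with the mean of the other 9 was 0.98 for Dgat1, 0.91 for Agpat2, 0.89 for Dgat2, 0.86 for Lpin1, 0.84 for Gpam, 0.83 for Gpat3, 0.77 for Gpd1 and 0.65 for Lpin3, but -0.07 for Gpat4 and -0.16 for Lpin2 (Pearson r). The libraries share days and arms. Among 12053 other genes, the 5 most like the members' mean course were Pparg (Pearson r 0.992), the hormone-sensitive lipase gene Lipe (0.989), the lipase inhibitor gene G0s2 (0.987), the zinc transporter family gene Slc30a9 (0.981) and the sterol exporter gene Abcg1 (0.980). Within the pathway Gpat3 and Dgat2 had the closest courses (r 0.97), and Gpat4 and Lpin3 the least alike (r -0.66).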

How the data were processed

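RNA-seq of 32 libraries was analysed as 4 control and 4 knockdown libraries at each of 4 days. The authors deposited 1 table of log2 values for 20560 genes, from -1.56 to 17.99. Per the submitters' processing notes, TopHat2 2.1.0, Bowtie2 2.2.6, SAMtools 1.3.1 and HTSeq 0.6.1 were used. The transform, genome build, annotation and strand setting are not given in the sources used here. The values behaved as a regularized log, and inverting it gave reads within 0.1 of a whole number for 99.3% of values (20.0% by chance), and for 317 of the 320 values of the enzymes. For 94.6% of genes, the values of all libraries were within this limit. Reads of 20560 genes simulated through the same assumed transform were rebuilt exactly in 100.0% of cases. That tests the inversion only and cannot show that the authors used this transform. The table held 0 columns of other samples.

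Groups came from the labels. The deposited log2 values were fitted with limma 3.58.1 (R 4.3.3) with variance trend and robust weighting, for genes at 10 or more (2 to the power of the value) in at least 4 libraries. Knockdown was set against control separately by day, and the hairpins formed separate groups for their comparison. Differences of effects came from a fit of all 32 libraries by arm and day, with the hairpins pooled. Control days were compared within the control libraries. Knockdown days were compared within the knockdown libraries by hairpin and day, with the changes of the hairpins averaged. P-values were adjusted by Benjamini-Hochberg over all genes tested, with a threshold of 0.05, and tests are two-sided. On simulated data for knockdown against control with 13167 to 13324 genes tested, 96% to 99.5% of 200 changed genes were recovered and 3.4% to 7.69% of calls were false. The simulation gave both hairpins the same change and all genes the same spread beyond counting. It changed only genes with more reads, by more than the smaller differences reported here. In the data the hairpins differed for 35%, 19.6%, 16.4% and 22% of genes in order of day, so these rates need not hold there. Positions and exon lengths came from GENCODE M21, GRCm38. The alternatives were other filters, rescaling, pseudocount 1, rebuilt reads, voom, other designs, a replicate block and leaving out each library.

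The enzymes and the gene lists were chosen with earlier results of these data known. The text names all 10 enzymes, from each list the gene with the largest difference per day and those called in 1 direction at days 3, 7 and 11, and the 5 genes most like the enzymes' mean course. Pparg, Srebf1 and Mlxipl were set to be named whatever their values. Mogat1, Mogat2, Cd68 and Lyz2 were named after their values were seen.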

Additional observations from a re-analysis of the deposited data

Results flagged for a closer look

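In 80 groups of 4 libraries, 4 values on the log2 scale stood further from the rest than the 95% limit of Dixon's test. Chance passes it in about 1 group of 20, or 4 of 80, so the number is that expected by chance. These were Gpam in control replicate 2 at day 3 (2418 normalized reads) and at day 7 (2164), Lpin1 in control replicate 3 at day 0 (540) and Dgat1 in shRNA 1 replicate 1 at day 11 (3725).

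The effect of the knockdown differed from that at day 0 by limma's test of the difference, on the log2 scale. At day 3 it differed by 1.5 for Gpd1, 0.34 for Gpam, 1.44 for Gpat3, 0.51 for Agpat2, 0.74 for Lpin1, -0.61 for Lpin3, 0.55 for Dgat1 and 1.25 for Dgat2. At day 7 it differed by 1.64 for Gpd1, 0.37 for Gpam, 2.06 for Gpat3, 0.14 for Gpat4, 1.19 for Agpat2, 1.67 for Lpin1, 1.49 for Dgat1 and 1.76 for Dgat2. At day 11 it differed by 1.59 for Gpd1, 0.51 for Gpam, 1.28 for Gpat3, 0.61 for Agpat2, 1.82 for Lpin1, 0.90 for Dgat1 and 1.23 for Dgat2. Between days 7 and 11 it differed by -0.78 for Gpat3, -0.58 for Agpat2 and -0.58 for Dgat1. These differences share the day 0 or day 7 libraries.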

How the results depend on the processing

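Of 5678 values of single enzymes under the alternatives, 5428 kept their direction and their side of the threshold, 152 lost a call, 44 gained one and 54 changed sign, none of them called. The 5678 include fits without a library that is in no group compared, where the difference itself cannot change. The count of 5428 thus overstates how stable the values are. The count for knockdown against control at day 0 was 0, and became 1 in 1 fit of all 32 libraries and 3 with the hairpins as separate groups. The counts of 3 and 7 for the difference between hairpins at days 3 and 7 became 0 and 3 without variance trend and robust weighting. The count for shRNA 2 against control at day 0 went from 0 to 1 after rescaling to equal totals, to equal medians and with the replicate block. The cause was not tested.

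Libraries with the same replicate number showed little likeness (r of deviations -0.01 to 0.21 over 24 pairs within a day, with 3 over 0.1, all at day 11). With 2 libraries per hairpin the deviations of a hairpin mirror each other, and a low r over all genes cannot exclude pairing. With the replicate block the count of 7 at day 3 for knockdown against control became 4, as Gpd1 (adjusted p 0.11), Agpat2 (0.0507) and Lpin3 (0.123) were not called. It also ended the calls of Gpam at day 7 (0.159, adjusted p 0.243) and Gpd1 at day 11 (1.605, adjusted p 0.0765). By hairpin it ended those of Gpd1 at day 3 (adjusted p 0.223 for shRNA 1 and 0.0956 for shRNA 2), Lpin2 with shRNA 1 at day 3 (0.0778) and Gpat4 with shRNA 1 at day 0 (0.0502), and called Lpin2 with shRNA 2 at day 0 (0.0303). Gpd1 between hairpins at day 11 was called with the block (adjusted p 4.92e-06). The block turned Lpin3 and Dgat1 for shRNA 2 at day 0 to -0.01 and 0.008, Gpat4 for shRNA 1 at day 3 to -0.009 and Lpin3 for shRNA 2 at day 7 to -0.045.

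On leaving out 1 library, counts ranged from 0 to 1 for knockdown and for shRNA 2 at day 0, from 5 to 8 for shRNA 1 at day 3, from 3 to 5 for the change of effect between days 7 and 11, and for the hairpins against each other from 2 to 4, 1 to 4, 4 to 7 and 1 to 5 in order of day. Equal totals turned Gpat4 between hairpins at day 7 to 0.021 and Gpd1 in the knockdown from day 7 to 11 to 0.009, and equal medians turned Gpam between hairpins at day 11 to -0.012. Rebuilt reads and voom turned the effect on Lpin3 at day 11 against day 0 to -0.058 and -0.08.

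Values not called in the analysis as reported that changed sign on leaving out 1 library ranged as follows on the log2 scale, and of these only Dgat2 between hairpins at day 3 was called at an end of its range (-0.256, adjusted p 0.00124). For knockdown at day 0, Lpin1 ranged from -0.174 to 0.01 and Dgat1 from -0.026 to 0.07. For shRNA 1, Gpat3 ranged from -0.012 to 0.159 and Gpd1 from -0.056 to 0.253 at day 0, and Gpam from -0.072 to 0.101 at day 3. For shRNA 2, Dgat1 ranged from -0.127 to 0.064, Dgat2 from -0.144 to 0.058 and Lpin3 from -0.045 to 0.208 at day 0, and Lpin2 from 0 to 0.094 at day 3 and from -0.002 to 0.108 at day 7. Between hairpins, Gpd1 ranged from -0.073 to 0.269 and Gpat4 from -0.067 to 0.031 at day 0, Gpat3 from -0.193 to 0.091 and Dgat2 from -0.256 to 0.105 at day 3, Gpat4 from -0.045 to 0.01 at day 7 and Lpin1 from -0.007 to 0.187 at day 11. From day 7 to 11, Gpd1 ranged from -0.131 to 0.159 in control, from -0.156 to 0.101 in the knockdown and from -0.248 to 0.211 in the difference of these. For the effect at day 11 against day 0, Gpat4 ranged from -0.029 to 0.027 and Lpin2 from -0.097 to 0.036.

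Equal totals moved the share of all calls that were higher by over 10 points in several comparisons, for the effects at days 3, 7 and 11 against day 0 from 56.2%, 56% and 53.6% to 42.4%, 40.7% and 40.1%. It shifted single libraries by -0.07 to 0.10. Depth limits Gpd1 and Lpin3 at days 0 and 3, where few reads were counted.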
